A study of Mus musculus with 24 samples.

Results

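FGF21 treatment was compared with vehicle in the livers of control mice, across 23972 genes in 10 libraries, 3 from FGF21-treated and 7 from vehicle-treated animals, out of the 24 liver libraries of the study. The libraries are those labelled with genotype Lmna.WT and treatment Rescue or Vehicle, and each is from a different animal number. Control mice were female, on a C57BL/6J background, carried loxP sites around exons 10 and 11 of Lmna on both alleles and had no Adipoq-Cre, the transgene that deletes Lmna in adipocytes of the lipodystrophic Lmna ADKO mice. They were 12 to 14 weeks old at the start, were housed at 22°C and ate a diet with 60% of its energy from fat for 4 weeks, after which they received AAV8 carrying mouse FGF21 or vehicle by retro-orbital injection, and livers were taken 8 weeks later. The 14 lipodystrophic libraries, 8 with FGF21 and 6 with vehicle, entered the fit and 1 comparison below. Because the labels say Rescue, the treatment was read as FGF21 from the study's methods.

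FGF21 is a hormone made mainly by the liver and induced by fasting and by other nutritional stress. It acts through FGF receptors together with the co-receptor β-Klotho, encoded by Klb, and its best known target cells are in adipose tissue and brain. In liver the hormone is tied to fatty acid oxidation, ketone production and glucose output, and responses there can come from other organs. An AAV8 vector enters hepatocytes efficiently, so a liver given the vector is also where much of the transferred hormone can be made.

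The 10 libraries held between 20611785 and 21226550 counts. FGF21 library 3 stood apart from the other controls: its level fell with gene length by 0.29 log2 CPM (counts scaled by library size) per doubling of length (slope -0.289), its second principal component score was 53.4, and mitochondrially encoded genes took 7.45% of its counts, against 4.501 to 6.509% in the other 9. Vehicle library 3 leaned the same way, with a slope of -0.154, and the remaining libraries of the study, other than 1 FGF21-treated lipodystrophic library at -0.331, had slopes from -0.109 to 0.128. The called genes are therefore given with and without FGF21 library 3, and so are the other genes and lists that it moved. The animal numbers of all 3 FGF21-treated controls have 4 digits, whereas 6 of the 7 vehicle-treated controls have 3 digits, so the number series and the treatment can hardly be told apart.

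Counts on Fgf21 did not separate the groups. It was at 3.14, 3.80 and 7.40 CPM in FGF21 libraries 1, 2 and 3, and between 1.90 and 10.8 CPM, with a median of 2.80, in the vehicle libraries. The FGF21 libraries lay within the vehicle range, and the mean log2 CPM differed by 0.41 (exact two-sided permutation test, p = 0.467, smallest possible p = 0.0167). The fitted log2 fold change of Fgf21 was 0.24, and -0.22 without library 3 (edgeR adjusted p = 0.925 and 1). Whether the vector's transcript could be counted on this gene was not tested. The receptor side of the pathway did not pass the test either: among Klb and Fgfr1 to Fgfr4, log2 fold changes ran from -0.36 for Fgfr3 to 0.44 for Fgfr1 (edgeR adjusted p = 0.797 and 0.771), and without library 3 these 2 were at -0.06 and 0.68 (adjusted p = 1 and 0.627). Fgfr1 was at 7.27, 5.39 and 3.32 CPM with FGF21, against 3.40 to 4.53 CPM with vehicle. Tgfbr2, the other gene the study delivered by vector, in its soluble form and in other experiments, was at 20.9, 22.1 and 22.6 CPM, against 14.8 to 21.1 CPM, a difference of 0.29 in mean log2 CPM (exact permutation p = 0.05). The fitted log2 fold change of Tgfbr2 was 0.28, which did not pass (edgeR adjusted p = 0.771), and 0.25 without library 3.

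With FGF21, 12 genes rose and 1 fell in control liver (edgeR quasi-likelihood test, adjusted p below 0.05 and fold change above 1.5), which is 0.0501% and 0.00417% of the genes tested, or 0.0542% together. At an unadjusted p below 0.05 there were 1476 genes, or 6.16%. Without FGF21 library 3 the totals were again 12 higher and 1 lower, 0.0542% together, and 7 genes were shared, all of them higher. These were Rasd1, Mfsd2a, Rasgef1b, Itprip, Yod1, Tnfrsf1b and Slc25a51. In each of the 7, FGF21 library 3 was the lowest of the 3 treated libraries and was still above the highest vehicle library, and the fold change was larger without it. Of the 13 genes called with all libraries, 12 did not overlap between the groups, and of the 12410 genes whose average log2 CPM was not under 0, 1.02% did not overlap in the higher direction and 1.03% in the lower. FGF21 libraries 1 and 2 on their own lay above every vehicle library in 3.01% of these genes and below every one in 2.43%. The calls were made from these same values, so the lack of overlap in called genes is no separate support for them.

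Rasd1 (chr11:59963181-59964944, GRCm38), a small Ras-like GTPase first described as induced by dexamethasone, changed most of the shared genes. It was at 4.47, 2.90 and 1.69 CPM in the FGF21 libraries, and between 0.486 and 0.771 CPM, with a median of 0.585, in the vehicle libraries. The gene is weakly expressed, with 9 to 17 counts per vehicle library and 94, 58 and 29 in the treated ones, and the groups did not overlap. It rose by 2.38 ± 0.33 (SE) on the log2 scale, or 5.19-fold (adjusted p = 0.00142), and by 2.65 ± 0.34 without FGF21 library 3 (adjusted p = 0.000328). Rasd1 remained called whichever of the 10 control libraries was left out, with log2 fold changes from 1.98 to 2.65 and adjusted p from 0.000328 to 0.0408.

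Mfsd2a (chr4:122946850-122961188), the transporter that carries lysophosphatidylcholine with docosahexaenoic acid into cells, was at 235, 234 and 216 CPM with FGF21. With vehicle it ranged from 56.5 to 109 CPM, with a median of 67.8. The 3 treated libraries lay close together, far above every vehicle library. The gene rose by 1.59 ± 0.24 on the log2 scale, 3.02-fold (adjusted p = 0.00436), and by 1.63 ± 0.27 without library 3 (adjusted p = 0.0109). It too stayed called on leaving out any 1 control library, with adjusted p from 0.00102 to 0.0404, and lost its call when the 3 libraries with the steepest length slopes, 1 of them lipodystrophic, were left out together.

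Slc25a51, the carrier of NAD+ into mitochondria, was at 119, 127 and 104 CPM with FGF21 and at 57.2 to 75.5 CPM, median 62.1, with vehicle. It rose by 0.88 ± 0.15 on the log2 scale (adjusted p = 0.00775, or 0.96 ± 0.16 and 0.00996 without library 3). Tnfrsf1b, a receptor of tumor necrosis factor, was at 66.3, 73.3 and 50.7 CPM, against 28.04 to 40.56 CPM, median 33.2. It rose by 0.89 ± 0.14 (adjusted p = 0.00457, or 1.02 ± 0.15 and 0.00128 without library 3). Neither gene overlapped between the groups, and both had their lowest treated value in library 3.

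Yod1, a deubiquitinating enzyme that works with the protein-extracting ATPase p97, was at 17.8, 18.6 and 12.2 CPM with FGF21 and at 5.97 to 11.04 CPM, median 7.41, with vehicle. It rose by 1.07 ± 0.17 on the log2 scale (adjusted p = 0.00494, or 1.24 ± 0.18 and 0.00129 without library 3). Rasgef1b, an exchange factor for Ras-family GTPases, was at 33.4, 29.8 and 20.5 CPM, against 8.90 to 17.9 CPM, median 13.7. It rose by 1.12 ± 0.18 (adjusted p = 0.00457, or 1.296 ± 0.186 and 0.00128 without library 3). Itprip, a protein that binds the inositol trisphosphate receptor, was at 4.42, 4.24 and 2.68 CPM, against 1.33 to 2.11 CPM, median 1.83. It rose by 1.08 ± 0.21 (adjusted p = 0.0381, or 1.27 ± 0.22 and 0.0109 without library 3). The annotated span of Itprip overlaps Cfap43 on the same strand, so reads of the 2 genes may be shared out between them. Itprip was the least steady of the 7, called in 3 of the 10 fits that each left out 1 control library, whereas Rasgef1b, Yod1 and Slc25a51 were called in 8 and Tnfrsf1b in 9, and the losses among these 4 came on leaving out FGF21 library 1 or 2. Rasgef1b and Itprip also lost their calls when edgeR was run on the control libraries only.

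**Figure D1:**
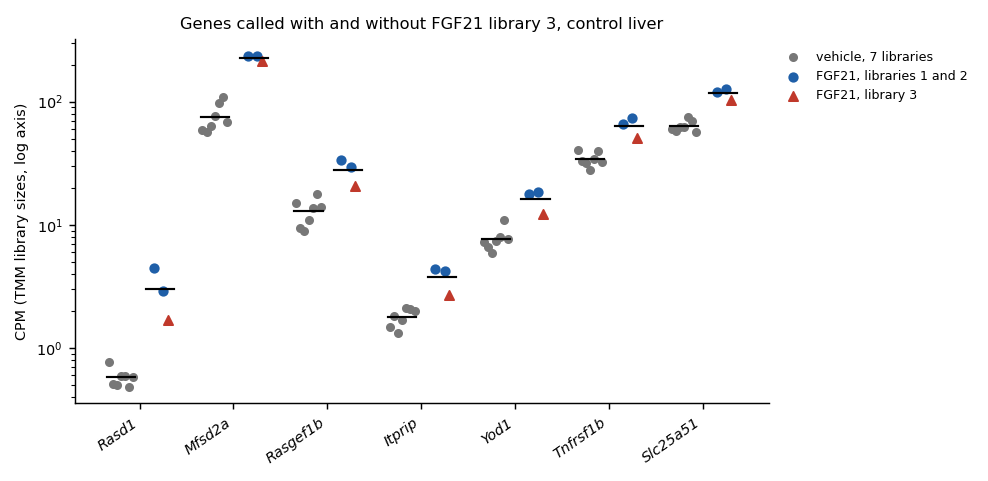
Level of the 7 genes called with and without FGF21 library 3, in CPM on a log axis, with 1 point per control library and black lines at group means. In every gene the 3 FGF21 libraries lie above all 7 vehicle libraries, and library 3, the triangle, is the lowest of the 3. The genes were plotted because they were called from these same values.

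Promoter windows from RefSeq on GRCm38.p6, from 250 bases before to 50 after the start, were found for 13 of the 17 called genes looked up, in 16 windows. They were searched on both strands for an E-box (CACGTG), a cyclic AMP response element (CRE, TGACGTCA), its core (TGACG), a C/EBP site (TTGCNNAA), a forkhead site (GTAAACA) and a glucocorticoid response element, and the core also lies within the full CRE. Windows are shown for Mfsd2a because it is the most abundant of the shared genes and holds none of these motifs, and for Yod1, Map3k6, Tmc7 and Etfbkmt because each was the only 1 of the 13 genes with a match to 1 of the motifs, which is set in capitals. The window of Yod1 has the forkhead letters at -163, read on the opposite strand, as 3.65% of the 32851 windows in the table hold them. The window of Map3k6, a kinase described below, has the glucocorticoid response element letters at -181, which 0.475% of all windows hold. Tmc7 has the full CRE at -49 (1.79% of windows) and Etfbkmt a C/EBP site at -147 (10.8%). A match is no evidence of binding.
Mfsd2a, chr4:122961139-122961438, minus strand: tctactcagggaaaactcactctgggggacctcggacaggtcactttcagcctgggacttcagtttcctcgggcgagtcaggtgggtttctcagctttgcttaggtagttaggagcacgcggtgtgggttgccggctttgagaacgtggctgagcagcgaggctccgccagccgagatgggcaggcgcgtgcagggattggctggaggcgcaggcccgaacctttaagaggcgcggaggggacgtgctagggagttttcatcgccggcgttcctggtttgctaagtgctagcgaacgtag
Yod1, chr1:130717077-130717376, plus strand: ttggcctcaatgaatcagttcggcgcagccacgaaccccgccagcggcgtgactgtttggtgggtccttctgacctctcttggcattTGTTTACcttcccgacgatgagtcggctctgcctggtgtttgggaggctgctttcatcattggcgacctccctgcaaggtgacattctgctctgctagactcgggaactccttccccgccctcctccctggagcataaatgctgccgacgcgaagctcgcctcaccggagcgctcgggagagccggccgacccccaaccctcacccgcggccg
Map3k6, chr4:133240568-133240867, plus strand: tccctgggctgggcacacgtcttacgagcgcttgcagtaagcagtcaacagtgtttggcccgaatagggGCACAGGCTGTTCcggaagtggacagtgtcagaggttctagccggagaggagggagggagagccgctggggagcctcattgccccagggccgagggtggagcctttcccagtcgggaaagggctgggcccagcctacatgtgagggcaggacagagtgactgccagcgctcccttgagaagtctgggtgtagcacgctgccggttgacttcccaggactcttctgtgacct
Tmc7, chr7:118584637-118584936, minus strand: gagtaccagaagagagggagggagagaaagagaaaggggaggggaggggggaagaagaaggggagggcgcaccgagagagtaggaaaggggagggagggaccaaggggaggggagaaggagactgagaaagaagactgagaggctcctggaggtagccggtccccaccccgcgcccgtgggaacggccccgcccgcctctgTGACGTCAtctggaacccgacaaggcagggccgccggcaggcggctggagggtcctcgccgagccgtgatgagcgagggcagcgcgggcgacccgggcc
Etfbkmt, chr6:149141263-149141562, plus strand: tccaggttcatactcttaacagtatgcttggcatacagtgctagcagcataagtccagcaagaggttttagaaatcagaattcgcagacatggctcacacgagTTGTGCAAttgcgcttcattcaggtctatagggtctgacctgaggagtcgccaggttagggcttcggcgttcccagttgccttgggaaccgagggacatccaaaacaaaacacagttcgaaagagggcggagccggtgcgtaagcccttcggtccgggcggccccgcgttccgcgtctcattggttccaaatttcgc

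The CRE core was present in 6 of the 13 genes, Rasgef1b, Itprip, Tmc7, Pfkfb3, Slc38a2 and Arrdc3, or in 7 of the 16 windows, and in 20.8% of all windows. An E-box was found in 2 of the 16, of Gadd45b and Pfkfb3, and in 7.15% of all windows. These are descriptions of the letters in these windows.

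A further 5 higher genes and the only lower gene were called with all 3 FGF21 libraries and not without library 3. All 6 kept their direction. Cebpd, a C/EBP-family transcription factor of acute phase and hormone responses, was at 13.4, 16.3 and 15.4 CPM with FGF21 and 4.36 to 7.24 CPM, median 5.95, with vehicle, and rose by 1.38 ± 0.25 on the log2 scale (adjusted p = 0.0268, or 1.37 ± 0.30 and 0.119 without library 3). Gadd45b, a stress-induced regulator of growth arrest, was at 8.22, 12.9 and 16.7 CPM, against 3.07 to 6.08 CPM, and rose by 1.58 ± 0.29 (adjusted p = 0.0252, or 1.32 ± 0.32 and 0.24 without). Map3k6, a stress-activated MAP kinase kinase kinase, was at 2.66, 6.44 and 4.43 CPM, against 0.885 to 2.19 CPM, and rose by 1.73 ± 0.34 (adjusted p = 0.0397, or 1.75 ± 0.39 and 0.132 without). In all of these genes the treated libraries lay above every vehicle library, and the fold changes of Cebpd and Map3k6 hardly moved while their standard errors grew.

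Etfbkmt, a methyltransferase of the electron transfer flavoprotein of fatty acid oxidation, was at 23.1, 30.6 and 30.3 CPM with FGF21 and 14.2 to 16.7 CPM, median 14.9, with vehicle, and rose by 0.87 ± 0.15 on the log2 scale (adjusted p = 0.00934, or 0.81 ± 0.17 and 0.086 without library 3). Arrdc3, an α-arrestin that directs receptors to endosomes, was the gene that fell. It was at 76.9, 34.1 and 56.7 CPM, against 111 to 215 CPM, median 168, with no overlap, and decreased by 1.55 ± 0.29 (adjusted p = 0.0366, or -1.56 ± 0.36 and 0.188 without library 3). Cphx2, a homeobox gene outside the rule for naming genes because of its low level, had 11, 0 and 23 counts with FGF21 and at most 1 count with vehicle, so no fold change is given. On leaving out each of the 10 control libraries in turn, Etfbkmt was called 8 times, Arrdc3 4 times, Gadd45b 3 times, Map3k6 2 times and Cebpd 1 time.

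Another 5 higher genes and 1 lower gene were called on leaving library 3 out and not with it. In 5 of the 6, FGF21 library 3 lay within the vehicle range, and all 6 kept their direction with it included. Pfkfb3, which makes the glycolytic activator fructose 2,6-bisphosphate, was at 22.9, 15.1 and 4.31 CPM with FGF21 and 3.59 to 9.34 CPM, median 4.43, with vehicle, and rose by 1.94 ± 0.31 on the log2 scale without library 3 (adjusted p = 0.00996, or 1.51 ± 0.36 and 0.234 with it). Slc38a2, a sodium-coupled transporter of neutral amino acids, was at 161, 189 and 68.2 CPM, against 63.6 to 107 CPM, and rose by 1.17 ± 0.21 (adjusted p = 0.0119, or 0.85 ± 0.23 and 0.366 with library 3). Thbd, the endothelial anticoagulant receptor thrombomodulin, was at 7.94, 8.09 and 1.98 CPM, against 2.62 to 4.73 CPM, and rose by 1.24 ± 0.19 (adjusted p = 0.00168, or 0.83 ± 0.25 and 0.436 with library 3). In Thbd, library 3 was below every vehicle library while the other 2 treated libraries were above all of them.

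AA986860, at 4.42, 8.59 and 2.04 CPM against 0.469 to 2.04 CPM, rose by 2.46 ± 0.45 on the log2 scale without library 3 (adjusted p = 0.0322, or 2.09 ± 0.44 and 0.113 with it). The gene (chr1:130731976-130744622, plus strand) is annotated just downstream of Yod1 (chr1:130717327-130724358) on the same strand, so these neighbours were both higher with FGF21. Tmc7, a member of the transmembrane channel-like family, was at 4.04, 3.50 and 1.16 CPM, against 0.553 to 1.60 CPM, and rose by 2.05 ± 0.40 (adjusted p = 0.0461, or 1.69 ± 0.40 and 0.22 with library 3). The predicted gene Gm49320, outside the naming rule, fell by 2.24 ± 0.42 without library 3 (adjusted p = 0.0229); its span overlaps Map2k7 and Tgfbr3l on the same strand, so its counts may be shared with them.

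**Figure D2:**
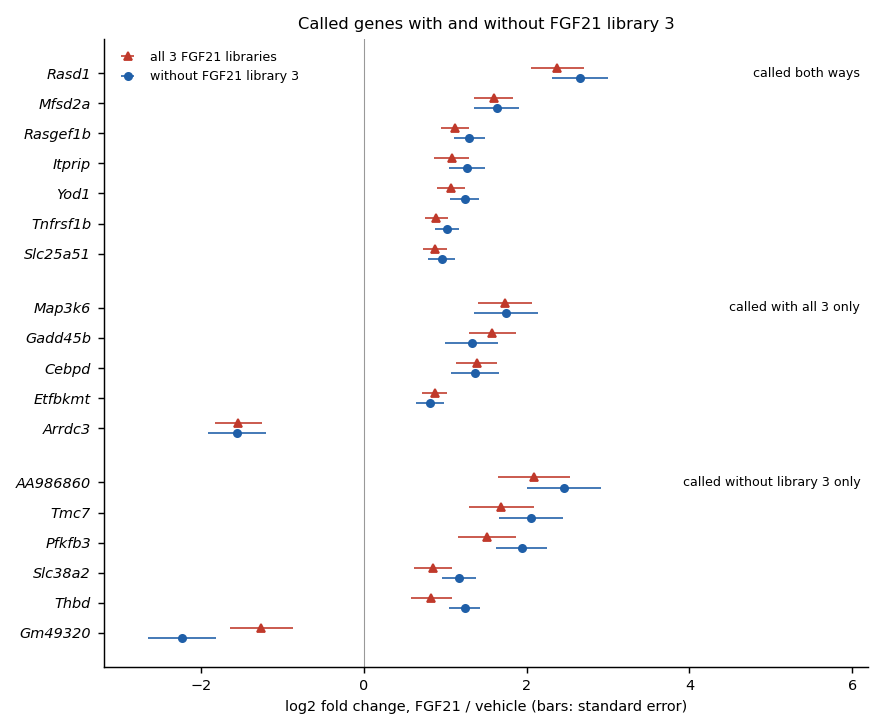
Log2 fold change of FGF21 over vehicle in control liver for the called genes other than Cphx2, with bars of 1 standard error, with all 3 FGF21 libraries (triangles) and without library 3 (circles). The 7 genes at the top were called both ways and shifted away from 0 without library 3, by contrast with Gadd45b, from 1.58 to 1.32.

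The calls also depended on the other libraries and on the test. Leaving out FGF21 library 2 left 3 higher genes and none lower, leaving out library 1 left 7 higher and 1 lower, and leaving out vehicle library 6 gave 23 higher and 3 lower. DESeq2 on the same 24 libraries called 28 higher and 10 lower genes, including 12 of the 13. With the digits of the animal numbers (3 or 4) as a covariate, edgeR called no gene, with 986 at an unadjusted p below 0.05; Rasd1 and Mfsd2a were then at log2 fold changes of 1.84 and 1.53 (adjusted p = 0.178 for each).

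Glucose metabolism was the 1 list of the 35 with a called gene, and only on leaving out library 3. Of 23 measured genes of gluconeogenesis, glycolysis and glycogen, none was called with all libraries, 7 were higher and 1 lower at an unadjusted p below 0.05, and Pfkfb3 was called without library 3, when 5 were higher and 0 lower at that level. Over all genes, 3.54% were higher and 2.62% lower at that level with all libraries, and 2.86% and 1.5% without library 3. The median log2 fold change of the list was 0.15, and 0.19 without library 3, against -0.01 and -0.02 over genes of at least 1 CPM on average. The list was chosen with earlier results of these data known and carries no test. Pck1, Foxo1 and G6pc were named after their values were seen, so they add no support to the list counts. Pck1, the enzyme that commits oxaloacetate to glucose synthesis, was at 3860, 3606 and 1936 CPM with FGF21 and 1356 to 1911 CPM, median 1487, with vehicle. The groups did not overlap, with library 3 just above the highest vehicle library and the other 2 well above it, for a difference of 1.04 ± 0.27 on the log2 scale (adjusted p = 0.302, or 1.29 ± 0.29 and 0.145 without library 3). Foxo1, the insulin-restrained transcription factor of gluconeogenesis, was at 56.9, 39.0 and 31.9 CPM, against 18.9 to 36.4 CPM, for a difference of 0.82 ± 0.20 (adjusted p = 0.223, or 0.99 ± 0.21 and 0.105 without library 3). G6pc, the glucose 6-phosphatase, changed by 0.64 ± 0.32 on the log2 scale (adjusted p = 0.771, or 0.80 ± 0.37 and 1 without library 3).

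No gene of the lipid lists was called with or without library 3. The shares of all genes at an unadjusted p below 0.05 were 3.54% higher and 2.62% lower, and 2.86% and 1.5% without library 3. Among 32 genes of fatty acid oxidation and ketogenesis, 1 had an unadjusted p below 0.05, Angptl4, a secreted inhibitor of lipoprotein lipase. Angptl4 was at 214, 256 and 323 CPM with FGF21 and 115 to 158 CPM, median 132, with vehicle, without overlap, and its log2 fold change of 0.97 ± 0.22 did not pass the test (edgeR adjusted p = 0.134, or 0.80 ± 0.25 and 0.595 without library 3; DESeq2 adjusted p = 0.0187 with all libraries). Cpt1a, which admits fatty acids to mitochondria, was at 523, 528 and 455 CPM, inside the vehicle range of 389 to 647 CPM. Of 26 genes of lipogenesis and triglyceride synthesis none was called and 3 were higher at an unadjusted p below 0.05, among them Lpin1 and Lpin2, with log2 fold changes of 1.37 and 0.60, and of 1.79 and 0.81 without library 3. Cpt1a and Lpin1 were named after their values were seen. Of 19 lipid droplet and lipase genes none was called, with 6 higher and 1 lower at that level, and 3 higher and 0 lower without library 3. Pnpla2, the main triglyceride lipase of the cell, had the smallest p among them, at 123, 173 and 136 CPM against 79.4 to 121 CPM (log2 fold change 0.49 ± 0.16, adjusted p = 0.497, or 0.53 ± 0.18 and 0.737 without library 3). The median of this list went from 0.14 to -0.04 without library 3. Of 25 sterol synthesis genes 0 were higher and 1 was lower at an unadjusted p below 0.05, and of 25 bile acid genes 0 and 2. Without library 3, 0 sterol genes and 1 bile acid gene, which was lower, were at that level.

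In the hormone and stress lists no gene was called either. Over all genes, 3.54% were higher and 2.62% lower at an unadjusted p below 0.05, and 2.86% and 1.5% without library 3. Igfbp1, a liver-secreted binding protein of insulin-like growth factors that insulin represses, was at 182, 272 and 73.9 CPM with FGF21 and 12.9 to 87.3 CPM, median 40.7, with vehicle. Libraries 1 and 2 exceeded every vehicle library and library 3 did not, and the difference was 2.003 ± 0.598 on the log2 scale (adjusted p = 0.459, or 2.37 ± 0.65 and 0.45 without library 3). Ddit4, an inhibitor of mTORC1, was at 13.6, 14.5 and 4.13 CPM, against 2.25 to 4.28 CPM, a difference of 1.68 ± 0.42 on the log2 scale (adjusted p = 0.289, or 2.06 ± 0.42 and 0.11 without library 3; DESeq2 adjusted p = 0.0187). Of 24 genes of the ATF4 integrated stress response, 1 was higher and 1 lower at an unadjusted p below 0.05 with all libraries, and 3 and 1 without library 3. Herpud1, an endoplasmic reticulum stress gene, was at 550, 606 and 478 CPM, against 199 to 470 CPM (log2 fold change 0.86 ± 0.23, adjusted p = 0.339, or 0.95 ± 0.27 and 0.45 without library 3), while 17 of the 22 endoplasmic reticulum chaperone genes had a log2 fold change below 0, and 14 without library 3. Per1, a clock gene also driven by glucocorticoids, was at 54.3, 53.9 and 34.997 CPM, against a wide vehicle range of 4.499 to 49.79 CPM (log2 fold change 1.29 ± 0.43, adjusted p = 0.576, or 1.47 ± 0.49 and 0.737 without library 3). Of 28 acute phase genes 7 were higher and 0 lower at an unadjusted p below 0.05, and 5 and 0 without library 3.

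For several of the remaining lists, the 1 gene with the smallest p is given by the rule. Dusp1, a phosphatase of MAP kinases, had a log2 fold change of 1.08 among 21 genes of ERK feedback, Ccn2, a matrix protein, 1.19 among 42 matrix genes, and Cdkn1a, the cell cycle inhibitor p21, 1.62 among 34 cell cycle genes (adjusted p = 0.753, 0.363 and 0.536). Without library 3 these 3 were at 1.26, 1.31 and 1.86. Cyp2c55, a cytochrome P450, had -1.63 among 43 xenobiotic genes and Heyl, a Notch target, -0.80 among 27 Notch genes (adjusted p = 0.135 and 0.619), and without library 3 at -1.81 and -0.96. Ddx58, a sensor of viral RNA, had -0.38 among 31 interferon-stimulated genes and Hsd3b7, an enzyme of bile acid synthesis, -0.35 among 25 bile acid genes (adjusted p = 0.479 and 0.755), and without library 3 at -0.26 and -0.25.

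Several list medians crossed 0 when FGF21 library 3 was left out, those of ribosomal and respiratory chain genes by the widest margin among the lists plotted. The 79 cytosolic ribosomal protein genes had a median log2 fold change of 0.40 with all libraries, with all 79 above 0, and of -0.07 without library 3, with 71 below 0. The 76 nuclear genes of the respiratory chain and ATP synthase went from 0.31, with 74 above 0, to -0.09, with 70 below 0. The 13 mitochondrially encoded genes went from 0.25 to -0.18. In none of the 3 was a gene called. Rps23, of the small ribosomal subunit, was at 143, 199 and 375 CPM with FGF21 and 149 to 238 CPM, median 154, with vehicle, and only library 3 lay above the vehicle range, whose top was vehicle library 3. Mean log2 CPM over the ribosomal list, relative to the vehicle mean, was -0.28, 0.15 and 1.03 in FGF21 libraries 1, 2 and 3 and 0.49 in vehicle library 3. The shift was largest in the libraries with the steepest length slopes among the controls. With that slope as a covariate, the medians of the ribosomal, nuclear respiratory and mitochondrially encoded lists were 0.08, 0.03 and -0.03. The slope was measured on these same libraries, over genes that include members of these lists, so the adjusted medians are no independent check. The cause of the shift was not tested.

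**Figure D3:**
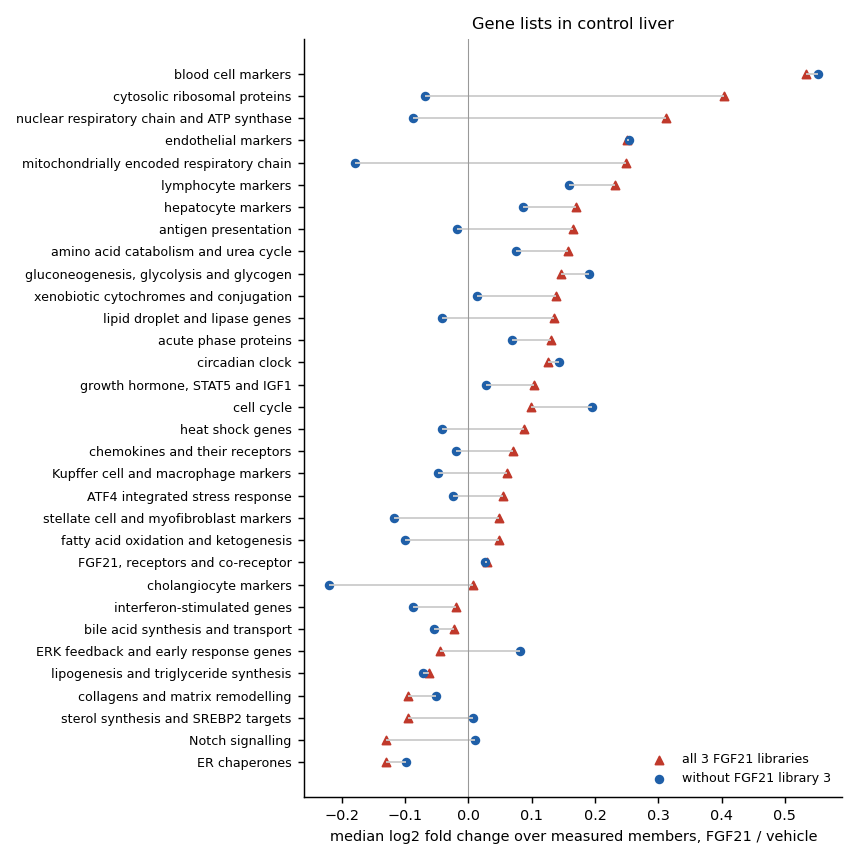
Median log2 fold change of FGF21 over vehicle over the measured genes of each list with at least 5 genes averaging 0 or more in log2 CPM, with all 3 FGF21 libraries (triangles) and without library 3 (circles). The ribosomal and both respiratory chain lists cross 0, from 0.40, 0.31 and 0.25 to -0.07, -0.09 and -0.18.

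Marker genes fitted liver tissue, with all 15 hepatocyte markers measured, each averaging 0 or more in log2 CPM, and summed levels of 142130, 149600 and 161570 CPM with FGF21 inside the vehicle range of 103350 to 175060 CPM. Exocrine pancreas and skeletal muscle markers each summed to less than 1 CPM in every control library. Fewer cells of a type and less RNA per cell cannot be told apart in whole tissue. Lymphocyte markers summed to 132, 58.8 and 57.5 CPM with FGF21, against 40.5 to 71.4 CPM, so that library 1 stood above the rest, with Ighm, the heavy chain of immunoglobulin M, at 73.7, 16.1 and 9.14 CPM against 8.57 to 14.996 CPM. Endothelial markers summed to 485, 502 and 501 CPM, all above the vehicle maximum of 476 CPM. Of these markers, 13 of 14 had a log2 fold change above 0, both with and without library 3, with none called. Their mean log2 CPM relative to the vehicle mean was 0.31, 0.25 and 0.12 in FGF21 libraries 1, 2 and 3. It was 0.16 in vehicle library 1, so by this measure FGF21 library 3 overlapped with vehicle. Bmp2, a sinusoidal endothelial signal for iron sensing, was at 20.3, 16.03 and 17.5 CPM, against 10.9 to 16.3 CPM (log2 fold change 0.51 ± 0.14, adjusted p = 0.38, or 0.53 ± 0.16 and 0.595 without library 3). Thbd, which endothelium also expresses, was at 7.94, 8.09 and 1.98 CPM with FGF21, and its relation to the endothelial sum was not tested. Blood cell markers summed to 659, 3154 and 1417 CPM, against 289 to 2041 CPM, so that FGF21 library 2 stood above the rest. Leaving out that library left the fewest calls, and a link between the 2 was not tested. Kupffer cell and macrophage markers summed to 1079, 1450 and 1737 CPM, against 1100 to 1601 CPM. The part of these cells in the called genes was not tested.

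The same treatment was set beside its counterpart in lipodystrophic Lmna ADKO liver, where no gene was called and 1608 genes, or 6.71%, had an unadjusted p below 0.05. Of the 19 genes called in controls with or without library 3, none was called there, 10 had the same sign, and 1, Thbd, had an unadjusted p below 0.05, with a log2 fold change of -0.51. The difference between the genotypes was tested as an interaction, which called 1 gene, Rasd1, or 0.00417% of genes, with 1165 (4.86%) at an unadjusted p below 0.05. Rasd1 was between 0.648 and 2.18 CPM in vehicle-treated lipodystrophic livers, with a median of 1.79, and between 0.506 and 1.76 CPM, median 1.23, in FGF21-treated ones. Its log2 fold change was -0.44 in these livers, against 2.38 in controls, a difference of 2.81 ± 0.42 (adjusted p = 0.00679), or 3.09 ± 0.43 without FGF21 control library 3 (adjusted p = 0.000684). Leaving out FGF21 control library 1 removed the call, and so did taking the animal number series as a covariate.

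Mfsd2a ranged from 90.0 to 224 CPM, median 140, in vehicle-treated lipodystrophic livers and from 90.9 to 240 CPM, median 156, in FGF21-treated ones, so that these groups overlapped almost wholly. Its difference between genotypes of 1.48 ± 0.31 on the log2 scale did not pass (adjusted p = 0.262). Without FGF21 control library 3 the interaction called 3 genes, 0.0125% of those tested, with 1020 (4.25%) at an unadjusted p below 0.05, namely Rasd1, Thbd (1.74 ± 0.23, adjusted p = 0.00061) and Gja1, the gap junction protein connexin 43. Arrdc3 was between 102.5 and 199.6 CPM with vehicle and 101 and 214 CPM with FGF21 in lipodystrophic livers, and its difference of -1.54 ± 0.35 did not pass (adjusted p = 0.412).

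**Figure D4:**
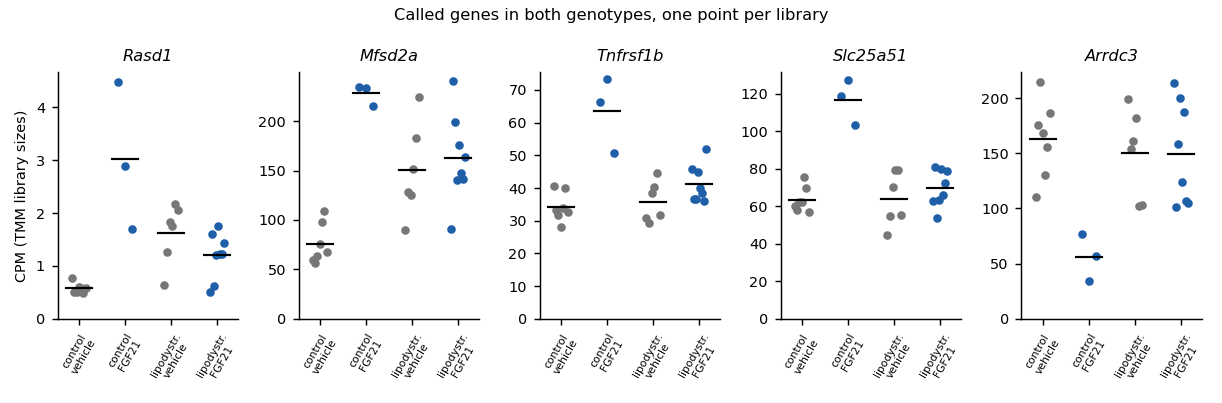
Level in CPM of 5 genes called in control liver, in control and lipodystrophic (lipodystr.) livers with vehicle (grey) or FGF21 (blue), 1 point per library and black lines at group means. FGF21 libraries stand clear of vehicle in controls and overlap with vehicle in lipodystrophic livers, as for Mfsd2a, at 90.9 to 240 CPM against 90.0 to 224 CPM. The 5 genes were plotted because they were called in controls, and of them only Rasd1 passed the interaction test.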

How the data were processed

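RNA-Seq of polyA-selected, strand-specific liver libraries gave whole-number counts per gene, which the authors deposited without normalization. Per the labels, the processing notes name cutadapt 4.8, FastQC 0.11.8, STAR 2.7.8a and RSEM 1.3.3, so the counts may be rounded estimates, and the study's methods name Ensembl 102 annotation. Labels and methods name different sequencing providers. The 10 control libraries held 20611785 to 21226550 counts and the 24 libraries 19863304 to 21510054, all similar, so precision is set mainly by the number of animals. Pairs of control libraries within a group had chi-square values of 30.8 to 151 per degree of freedom, far from sampling noise, using genes that reached 20 counts, so none was merged.

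Counts of 23972 genes in all 24 libraries received TMM scaling. The main test was edgeR 4.0.16 (R 4.3.3; estimateDisp, robust glmQLFit and glmQLFTest), with 1 fit of 4 groups without covariates. Genes were called at a Benjamini-Hochberg adjusted p below 0.05 with a fold change above 1.5. The SE of a log2 fold change is its size over the root of F. TMM library sizes were used for CPM, with a prior count of 2 for log2 CPM. The scripts were tested on simulated data. Genes were located in GENCODE M21 (GRCm38), which holds 23926 of them. Each library is 1 animal number, and replicates were numbered within a group. Alternatives were DESeq2 1.42.0, its size factors, edgeR filterByExpr, the control libraries only, the animal number series or the length slope (over 9694 protein-coding genes) as a covariate, and leaving out libraries.

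Genes were named by a rule: pathway and label checks, the called genes with and without FGF21 library 3 that averaged 0 or more in log2 CPM, members of 35 gene lists that were called or else the 1 with the smallest p, and interaction genes. Cphx2, Gm49320, Pck1, Foxo1, G6pc, Cpt1a, Lpin1 and Gja1 were named after their values were seen. Some genes that the rule names are not reported here. The comparison, genes and lists were chosen with earlier results of these data known, so the lists carry no test.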

Additional observations from a re-analysis of the deposited data

Results flagged for a closer look

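Within the vehicle-treated controls, 82 genes and summaries were checked for 1 library far from the other 6 in CPM. In 14 such a library was found, each time on the high side. No chance rate is set beside this count, because CPM is skewed and many of the genes were named from their values. Vehicle library 6 was the high one in Yod1 (11.04 CPM, others 5.97 to 8.01), Tmc7 (1.60, others 0.553 to 0.926), Pfkfb3 (9.34, others 3.59 to 4.95), Fkbp5 (131, others 30.4 to 60.9), Lpin1 (265, others 40.2 to 121) and Foxo1 (36.4, others 18.9 to 25.3). All 6 had a log2 fold change with FGF21 above 0, but their naming largely set this sign. Yod1, Tmc7 and Pfkfb3 were named as called higher, and Fkbp5, Lpin1 and Foxo1 were picked after their values were seen. Without vehicle library 6 edgeR called 23 higher and 3 lower genes, and the reason was not tested. Vehicle library 1 was high in Rasd1 (0.771 CPM, others 0.486 to 0.598), S100a9 (6.35, others 0.737 to 3.15) and Lcn2 (441, others 20.3 to 67.9). Vehicle library 4 was high in Fgf21 (10.8 CPM, others 1.90 to 5.01), Sox9 (5.25, others 0.934 to 2.36) and Gpnmb (11.8, others 0.633 to 1.02). Vehicle library 2 was high in Pdk4 (31.3 CPM, others 5.83 to 11.05), and vehicle library 3 in Rps23 (238 CPM, others 149 to 162).

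The interaction test called Rasd1 (2.81 on the log2 scale) and, without FGF21 control library 3, Thbd (1.74). Rasd1 lost this call with the animal number series as a covariate, and on leaving out FGF21 control library 1. In controls the number series and the treatment can hardly be told apart.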

How the results depend on the processing

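No paired analysis was possible because animal numbers are not shared between groups. With 12 higher and 1 lower gene as reported, DESeq2 gave 28 and 10 on all libraries, 28 and 3 without FGF21 library 3, and 36 and 12 on controls only. edgeR on controls only without FGF21 library 3 gave 26 and 2, the length slope as a covariate 4 lower, and the number series as a covariate 0 and 0, with 986 genes at an unadjusted p below 0.05. Leaving out each control library in turn gave 3 to 23 higher and 0 to 3 lower. The interaction, 1 gene as reported, gave 13 with DESeq2 and 27 with DESeq2 without FGF21 library 3, 2 with DESeq2 size factors or filterByExpr, 3 with the length slope, 5 without the 3 libraries of steepest slope, 0 with the number series, and 0 to 5 on leaving out 1 library. The exact permutation test of Fgf21 gave differences of 0.05 to 0.69 in mean log2 CPM and that of Tgfbr2 0.24 to 0.33 on leaving out 1 library, and Tgfbr2 passed without vehicle library 1 or 4 (0.33 and 0.32, exact p = 0.0476 for each). The causes were not tested.

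No called gene changed direction under these alternatives. Of the values of named genes under the alternatives, 1442 kept their side of the threshold, 77 lost it and 50 gained it. Of the list medians, 422 moved by less than the spread between vehicle libraries and 40 by more. The 3 treated animals limit every comparison.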

Other observations

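Several genes known to be induced in liver by fasting or glucocorticoids lay above vehicle in FGF21 libraries 1 and 2. These 29 genes were picked after the values had been seen, Rasd1, Map3k6, Cebpd, Pck1 and Foxo1 among them, so their counts are a description with no test. With all libraries 26 of the 29 had a log2 fold change above 0, and 19 were higher and 0 lower at an unadjusted p below 0.05. By edgeR 3 were called, Rasd1, Map3k6 and Cebpd, against 7 by DESeq2. Over all genes 3.54% were higher and 2.62% lower at that unadjusted p, and 0.0542% were called by edgeR. Genes picked for their values cannot be weighed against these shares. Over the 29 the median log2 fold change was 1.001, 1.249 without FGF21 library 3 and 0.18 in lipodystrophic liver, where 1 had an unadjusted p below 0.05. In 20 of the 29, library 3 was the lowest of the treated libraries, and in 19 it lay within the vehicle range. In 13 of the 29, vehicle library 6 was the highest of the vehicle libraries.

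Tat, the tyrosine aminotransferase, was at 1341, 1668 and 596 CPM in FGF21 libraries 1, 2 and 3 and 332 to 708 CPM, median 528, with vehicle. Fkbp5, a co-chaperone of the glucocorticoid receptor, was at 144, 149 and 59.6 CPM, against 30.4 to 131 CPM, and Tsc22d3, the glucocorticoid-induced leucine zipper, at 165, 102.3 and 54.9 CPM, against 27.7 to 95.0 CPM. In these genes libraries 1 and 2 exceeded every vehicle library, and library 3 was among the vehicle libraries. Cebpb, a transcription factor of the same family as Cebpd, was at 150, 177 and 109 CPM, against 51.2 to 101 CPM, with no overlap (log2 fold change 1.08 ± 0.28, edgeR adjusted p = 0.289). Errfi1, a feedback inhibitor of the epidermal growth factor receptor, was at 1420, 1392 and 827 CPM, against 226 to 1055 CPM. Others of the 29 did not differ in this way, such as Pdk4, with a log2 fold change of -0.05, Klf9, with 0.12, and Lcn2, with -0.26 (edgeR adjusted p = 1, 0.936 and 0.981).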
